A study of Homo sapiens with 18 samples.

Results

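The nuclear-encoded subunits of the respiratory chain and of ATP synthase were followed by bulk RNA-seq across 5 drug conditions and untreated cells of NCI-H295R, a steroid-producing cell line derived from a human adrenocortical carcinoma. Members were chosen by a rule on gene symbols, set with earlier results of these data known. For complex I it took names starting NDUFA, NDUFB, NDUFC, NDUFS or NDUFV and ending in a number. It also took the 4 SDH subunits (complex II), UQCR names (complex III), COX4 to COX8 names (complex IV) and ATP5 names (ATP synthase, here complex V). Of 58870 genes in the deposited table, 182 matched these patterns, and 96 of them were left out as pseudogenes or hyphenated names, which leaves 86 members. NDUFA4, named for complex I, is counted here with complex IV, where its protein was later placed. The groups were cells given STA9090 (also called ganetespib, which blocks the HSP90 chaperone), PIK75 (which blocks PI3K), BGT226 (which blocks PI3K and mTOR), STA9090+PIK75, STA9090+BGT226, and untreated cells, with 3 biological replicates each. Treatment lasted 48 h at 20 nM; the labels do not say whether each drug of a pair was at that dose, nor name a vehicle for the untreated cells. All groups are the same line.

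Complexes I, III and IV pass electrons from NADH and ubiquinol to oxygen and pump protons across the inner mitochondrial membrane, complex II feeds electrons from succinate, and complex V uses the proton gradient to make ATP. Most of their subunits are encoded in the nucleus and imported, while a few catalytic ones are encoded by mitochondrial DNA, so both genomes must supply each complex except complex II. The nuclear genes are known targets of the transcription factors NRF1, GABP, YY1 and the estrogen-related receptors with their PGC-1 coactivators, and mTOR is known to promote mitochondrial biogenesis. In adrenocortical cells mitochondria also carry out the first and some of the last steps of steroid synthesis.

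The 6 promoters below belong to members that are described most fully, 1 or 2 for each complex. Among such members, all but UQCRQ were picked because their promoter held the short NRF1 core. Each runs from 250 bases before to 50 bases after the RefSeq gene start on GRCh38.p14, 5′ to 3′ on the gene's strand. Capitals mark matches, on either strand, to the short NRF1 core GCATGCGC, the ETS or GABP core CCGGAAGT, or the YY1 core AAGATGGC.
NDUFS6: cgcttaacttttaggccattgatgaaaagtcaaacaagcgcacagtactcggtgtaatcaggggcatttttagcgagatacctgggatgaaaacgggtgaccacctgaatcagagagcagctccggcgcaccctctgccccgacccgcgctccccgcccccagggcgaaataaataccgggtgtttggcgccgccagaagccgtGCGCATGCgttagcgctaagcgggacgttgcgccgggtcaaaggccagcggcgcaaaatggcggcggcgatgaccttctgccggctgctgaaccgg
NDUFA8: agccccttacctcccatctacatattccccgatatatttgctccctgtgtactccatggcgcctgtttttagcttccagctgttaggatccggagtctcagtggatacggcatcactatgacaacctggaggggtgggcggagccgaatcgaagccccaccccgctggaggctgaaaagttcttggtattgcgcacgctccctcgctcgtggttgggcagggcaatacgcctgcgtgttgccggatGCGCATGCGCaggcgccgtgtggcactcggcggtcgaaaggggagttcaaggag
SDHB: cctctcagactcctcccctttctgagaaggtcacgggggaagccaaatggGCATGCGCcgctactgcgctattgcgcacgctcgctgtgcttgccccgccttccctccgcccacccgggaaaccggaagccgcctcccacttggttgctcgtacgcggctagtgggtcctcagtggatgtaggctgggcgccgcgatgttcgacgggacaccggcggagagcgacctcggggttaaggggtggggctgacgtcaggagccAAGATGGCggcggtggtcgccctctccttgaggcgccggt
UQCRQ: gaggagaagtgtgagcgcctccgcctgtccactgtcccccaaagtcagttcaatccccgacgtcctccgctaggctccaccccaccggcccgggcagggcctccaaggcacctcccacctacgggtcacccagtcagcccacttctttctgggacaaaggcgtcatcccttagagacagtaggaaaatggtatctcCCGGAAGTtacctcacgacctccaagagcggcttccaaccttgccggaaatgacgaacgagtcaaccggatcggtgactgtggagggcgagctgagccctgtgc
COX6A1: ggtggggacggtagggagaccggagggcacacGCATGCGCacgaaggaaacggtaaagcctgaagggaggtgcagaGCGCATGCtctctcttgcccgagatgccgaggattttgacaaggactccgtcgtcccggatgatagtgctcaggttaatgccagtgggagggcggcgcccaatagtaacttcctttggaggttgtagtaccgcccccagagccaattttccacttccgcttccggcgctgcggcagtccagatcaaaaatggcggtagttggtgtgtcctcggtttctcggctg
ATP5ME: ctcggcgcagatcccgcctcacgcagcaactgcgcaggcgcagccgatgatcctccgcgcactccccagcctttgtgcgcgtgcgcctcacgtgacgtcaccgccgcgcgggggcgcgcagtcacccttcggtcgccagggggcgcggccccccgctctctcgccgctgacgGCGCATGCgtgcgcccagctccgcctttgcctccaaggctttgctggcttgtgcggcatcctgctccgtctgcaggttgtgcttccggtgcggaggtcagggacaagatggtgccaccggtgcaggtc
The NDUFS6 promoter lies at chr5:1801157-1801456 on the plus strand, that of NDUFA8 at chr9:122159730-122160029 on the minus strand, that of SDHB at chr1:17053983-17054282 on the minus strand, that of UQCRQ at chr5:132866392-132866691 on the plus strand, that of COX6A1 at chr12:120437863-120438162 on the plus strand and that of ATP5ME at chr4:674227-674526 on the minus strand. The short NRF1 core was in every window but that of UQCRQ, in COX6A1 at more than 1 place and in NDUFA8 as part of the longer, fully palindromic NRF1 core. Its presence follows from the choice, since all windows but that of UQCRQ were picked because they held it. These windows are not typical of the members, since that core was in 13 of 66 tested members with a matched promoter (19.7%), and others described in full, such as NDUFB2, UQCR10, COX5A and ATP5PD, had none. The SDHB window also held a YY1 core, and the UQCRQ window held an ETS or GABP core only. A match is a run of letters, not a measured binding site.

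Libraries held 10237016 to 21133760 estimated counts, and 28.6% to 40.3% of each library fell on 4 RNA polymerase III transcripts. Levels are therefore given as CPM, counts relative to library size, scaled by TMM, a method that is little affected by a few dominant RNAs. Members made up 0.349% to 0.511% of a library. Untreated replicate 2 stood above the other untreated libraries in the summed level of every complex, so the main counts of members over all complexes are also given without it; counts by complex and over other lists were not recomputed without it. Of the defining adrenocortical markers, 10 of 11 were tested, with a summed level of 3250 to 3380 CPM with BGT226 and 3820 to 4300 CPM in untreated cells. With BGT226, 3 of these 10 were higher and 5 lower, among them CYP21A2 at 913 CPM on average with BGT226 against 657 CPM in untreated cells and SCARB1 at 1180 CPM against 1720 CPM. Endothelial markers summed to at most 0.315 CPM and muscle markers to at most 0.197 CPM in any library, and CDH5, CD3E, TH and MYH7 had no counts. The leukocyte list, with 2 of 5 genes tested, summed to 1.08 to 1.48 CPM with BGT226 against 2.45 to 3.25 CPM in untreated cells, and the adrenal medulla list ranged over 0.444 to 1.58 CPM in all libraries. The part of these lists in the results was not tested.

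Of the 86 members, 80 had enough counts to be tested: 36 of complex I, 4 of complex II, 9 of complex III, 13 of 18 of complex IV and 18 of 19 of complex V. The untested members were the tissue-restricted isoforms COX4I2 and COX7A1 with 0 counts in all libraries, COX8C with 1, COX7B2 with 8 and COX6A2 with 14, and ATP5MGL, a copy of ATP5MG, with 29. The tested members reached 598 CPM over all libraries, with a median of 36.3 CPM. Per kilobase of exon in untreated cells, ATP5F1B, the catalytic beta subunit of ATP synthase, stood first at 368 CPM per kb, ahead of COX6A1 at 160 and COX8A at 159 CPM per kb. COX6B2 and UQCRHL were lowest, at 0.584 and 0.506 CPM per kb. Length here merges the exons of all annotated coding transcripts of a gene, which can exceed that of the transcript in use. UQCRHL is an intronless copy of UQCRH, so reads may be split between them.

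Subunit transcripts fell broadly with BGT226, alone or with STA9090. With BGT226, 52 of 80 tested members were lower and 1 was higher than in untreated cells, where 15.7% of all 15787 tested genes were lower and 12.8% higher (edgeR quasi-likelihood test, Benjamini-Hochberg adjusted p under 0.05 over all tested genes). The members' median log2 fold change was -0.45, against 0.01 over all tested genes. With STA9090+BGT226, 55 members were lower and 2 higher, against a background of 20.4% and 19.4%, with a median of -0.49. In bulk RNA, fewer cells of a type and less RNA per cell cannot be told apart, and CPM is a share of the library. Without untreated replicate 2, 42 members were lower with BGT226 and 47 with STA9090+BGT226. In that fit 1966 and 2714 of all 16136 tested genes were lower, against 2485 and 3228 of 15787 with all libraries.

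The summed level of all members was 3580, 3680 and 3580 CPM with BGT226 and 3510, 3490 and 3640 CPM with STA9090+BGT226, against 4550, 5350 and 4420 CPM in untreated cells. Every library with BGT226 lay below every untreated library. The sums were 4830, 5110 and 5400 CPM with STA9090, 4460, 4670 and 4430 CPM with PIK75 and 4840, 4640 and 4740 CPM with STA9090+PIK75. These 3 groups overlapped the untreated range. Relative to untreated cells, the summed level with BGT226 was 0.74 for complex I, 0.853 for complex II, 0.713 for complex III, 0.737 for complex IV and 0.777 for complex V. With STA9090+BGT226 the ratios were 0.724, 0.856, 0.711, 0.72 and 0.76 in the same order. SDHA alone gave 149 to 162 CPM of the 274 to 300 CPM of complex II in untreated cells. These sums are descriptions with no test.

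**Figure D1:**
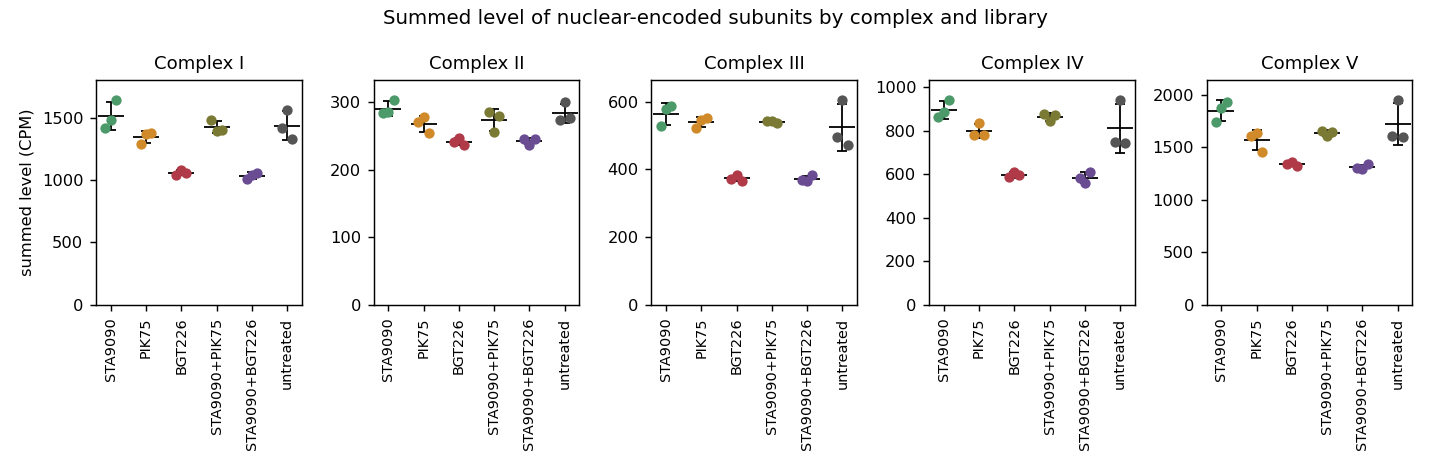
Summed TMM-scaled CPM of the members of each complex (vertical axes start at 0), with 1 point per library, 3 per group, a horizontal line at the mean and error bars of 1 SD. In every complex the BGT226 and STA9090+BGT226 libraries lie below all 3 untreated libraries, and untreated replicate 2 is the highest untreated library.

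By complex, 24 of 36 tested members of complex I, 1 of 4 of complex II, 5 of 9 of complex III, 9 of 13 of complex IV and 13 of 18 of complex V were lower with BGT226. The median log2 fold changes were -0.45, -0.24, -0.31, -0.51 and -0.46 in the same order. Over the 6 groups, 71 of 80 members differed in the test for any difference, where 69.5% of all tested genes did. The 9 that did not pass were NDUFV3, NDUFS1, NDUFB5, NDUFS3, NDUFA10, SDHA, UQCRHL, ATP5F1D and ATP5MC2.

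**Figure D2:**
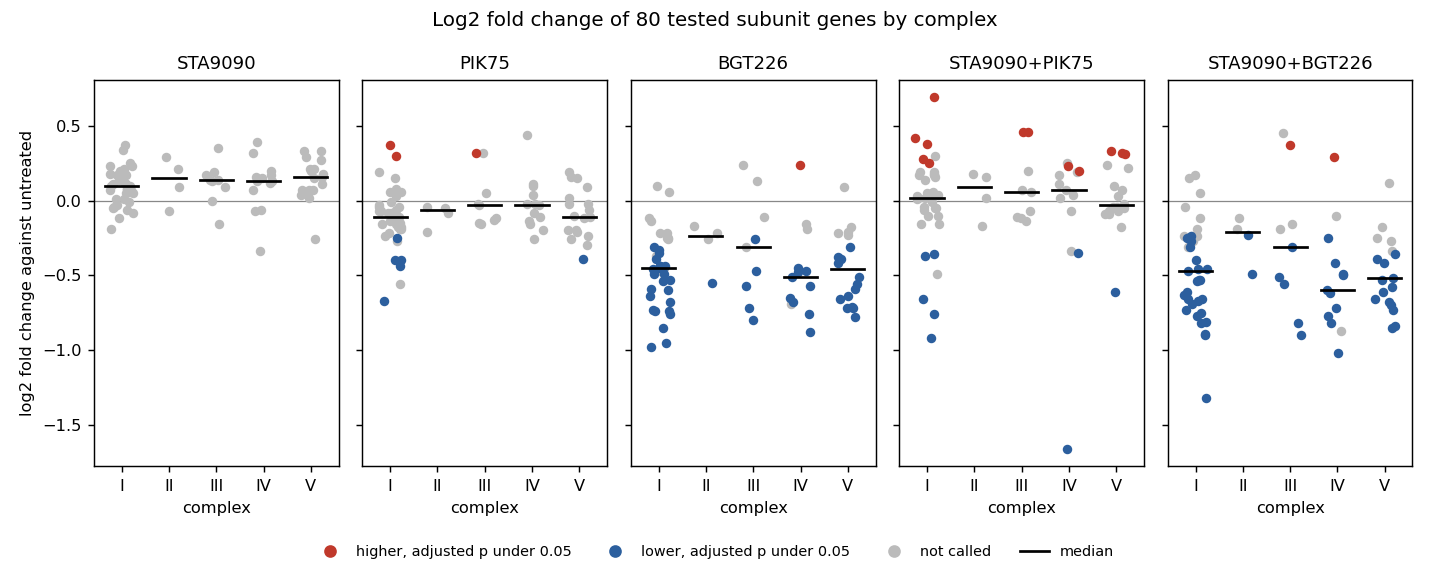
Log2 fold change of the 80 tested members against untreated cells, by complex, with 1 panel per treatment; red and blue points passed the adjusted threshold and bars are medians. Points with BGT226 and STA9090+BGT226 lie mostly below 0, with medians of -0.45 and -0.49, while those of the other treatments straddle 0.

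Complex I is the entry point for NADH. Its core, the conserved catalytic part, has 7 nuclear-encoded members, of which 4 were lower with BGT226, among them NDUFV2 with a log2 fold change of -0.68, NDUFS8 with -0.45 and NDUFS7 with -0.33. These 3 carry iron-sulfur clusters. NDUFS1 at -0.14 and NDUFV1 at -0.12 were among the core members that did not pass. NDUFS1, the largest core subunit, had 53.5, 49.8 and 50.2 CPM with BGT226 against 52.5, 55.5 and 61.3 CPM in untreated cells, so the groups overlapped. Among accessory subunits, 9 of 13 of the NDUFB and NDUFC type, which sit in the membrane arm, and 11 of 16 of the remainder were lower.

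NDUFS6, an accessory subunit needed late in assembly of the NADH-binding module, had the largest fall of all members with BGT226, alone or with STA9090. It had 22, 21.7 and 22.4 CPM with BGT226 and 18, 16.1 and 18.3 CPM with STA9090+BGT226, against 54.3, 38.6 and 38 CPM in untreated cells. Both BGT226 groups lay well below every other library. The log2 fold change was -0.98 ± 0.131 (SE) with BGT226 (edgeR adjusted p = 1.36e-05) and -1.32 ± 0.134 with STA9090+BGT226 (edgeR adjusted p = 2.59e-07). Its other groups, 36.9 to 51 CPM with STA9090, 35.9 to 45.9 CPM with PIK75 and 43.3 to 48.3 CPM with STA9090+PIK75, overlapped the untreated values and did not pass. NDUFA8, an accessory subunit with paired cysteine motifs, had the smallest p of any complex I member over the 6 groups. It had 21.1, 21.9 and 21.8 CPM with BGT226 against 34.6, 40.1 and 33.8 CPM in untreated cells, a log2 fold change of -0.74 ± 0.0757 (edgeR adjusted p = 5.28e-07).

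NDUFB2, a small membrane-arm subunit, had 9.07, 11.2 and 11.2 CPM with BGT226 against 19.1, 23.9 and 18.2 CPM in untreated cells. Its log2 fold change was -0.95 ± 0.121 (edgeR adjusted p = 8.81e-06), the second largest fall with that drug, and its reads may be shared with ADCK2, which overlaps it on the same strand. NDUFB9, another membrane-arm subunit, had 50, 53.5 and 54.2 CPM with BGT226 against 88.8, 84.5 and 72.5 CPM in untreated cells, a change of -0.64 ± 0.0864 (edgeR adjusted p = 1.57e-05). NDUFB8 was lower in all drug groups except STA9090 alone. It had 25, 26.7 and 22.7 CPM with PIK75, 25.2, 22.6 and 23.9 CPM with BGT226, 25, 21.9 and 28.2 CPM with STA9090+PIK75 and 21.5, 21.4 and 24.3 CPM with STA9090+BGT226, against 40.7, 43.4 and 34.3 CPM in untreated cells. None of these 4 groups overlapped the untreated libraries, and the changes were -0.67, -0.73, -0.66 and -0.82 in that order. Its reads may be shared with AL133352.1, which overlaps it on the same strand. NDUFB8 is a membrane-arm subunit whose protein is often used to report on assembled complex I.

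NDUFB7, which lies on the intermembrane-space side, had 40.2, 43.9 and 41.7 CPM with STA9090+PIK75 against 23.3, 31.4 and 22.8 CPM in untreated cells. The change of 0.69 ± 0.123 (edgeR adjusted p = 0.000166) was the largest rise of any member in any comparison with untreated cells. With PIK75 alone it had 28.7, 33.8 and 38.3 CPM, which overlapped the untreated values, and its call there (0.37, edgeR adjusted p = 0.0429) was lost without any 1 of 4 libraries or with only the compared groups in the fit. With BGT226 it had 21.9, 25.3 and 20.1 CPM and did not pass.

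NDUFA3, an accessory subunit of the membrane arm, was the only member whose response to STA9090 and PIK75 together differed from the sum of the single responses. It had 24.7, 19.9 and 21.3 CPM with STA9090+PIK75, 39, 41.1 and 45.2 CPM with STA9090, 29.6, 32.2 and 32.4 CPM with PIK75, and 42.4, 45.2 and 36.7 CPM in untreated cells. The pair lay below every other group. The interaction was -0.53 ± 0.131 on the log2 scale (edgeR adjusted p = 0.0154), and with only the compared groups in the fit it was not called; 5.73% of all tested genes had a negative and 3.54% a positive interaction in the fit of all groups. NDUFA11, another membrane subunit, had 74.3, 48.5 and 50.1 CPM with STA9090+PIK75 and 43.9, 66.9 and 45.7 CPM with STA9090+BGT226, against 90.8, 110 and 89.5 CPM in untreated cells. It fell in both pairs, by -0.76 and -0.9, but its STA9090 libraries ranged from 49.3 to 108 CPM, and its reads may be shared with AC024592.3 on the same strand.

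Complex II, succinate dehydrogenase, also works in the citric acid cycle and has no mitochondrially encoded part. SDHB, the iron-sulfur subunit, was its only member that passed as lower with BGT226. It had 22.9, 24.2 and 21.9 CPM against 32.6, 36.4 and 31.8 CPM in untreated cells. The groups did not overlap and the change was -0.55 ± 0.0911 (edgeR adjusted p = 0.000132). SDHA, the flavoprotein, had 134, 142 and 132 CPM with BGT226 against 149, 162 and 149 CPM in untreated cells, a change of -0.17 ± 0.0715 that did not pass (edgeR adjusted p = 0.0762). With STA9090+BGT226 its 135, 124 and 133 CPM gave -0.23 ± 0.0716, which passed (edgeR adjusted p = 0.0154). SDHA has near-identical copies in the table, SDHAP1 with 3295.92 and SDHAP3 with 915.54 estimated counts over all libraries, so reads may be split. The membrane anchors SDHC and SDHD did not pass with BGT226. SDHC had 69.2, 65.5 and 66.3 CPM against 75.8, 80.9 and 76.5 CPM in untreated cells. SDHD had 14.8, 15.8 and 16.3 CPM against 17.2, 20.6 and 18.4 CPM. All 4 complex II members had a negative value with BGT226 and an unadjusted edgeR p under 0.05. In none of them did a BGT226 library reach the untreated range.

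Complex III hands electrons from ubiquinol to cytochrome c. UQCRQ, a small subunit beside cytochrome b, moved in opposite directions with the 2 PI3K inhibitors. It had 98.1, 99.8 and 91.9 CPM with PIK75, 44.4, 47.4 and 42.1 CPM with BGT226, 107, 107 and 105 CPM with STA9090+PIK75 and 41.4, 38.6 and 44.7 CPM with STA9090+BGT226, against 73.8, 91.3 and 67.2 CPM in untreated cells. The PIK75 groups lay above and the BGT226 groups below all untreated libraries, and the difference between BGT226 and PIK75 itself was -1.12 ± 0.0955 (edgeR adjusted p = 2.82e-08). Against untreated cells BGT226 gave -0.8 and PIK75 gave 0.32, and the PIK75 call was lost without untreated replicate 1 or 3, without PIK75 replicate 1 or 2, or with only the compared groups in the fit.

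UQCR10, another small subunit, and UQCRC1, a core protein related to mitochondrial processing peptidases, were lower with BGT226. UQCR10 had 36.8, 35.4 and 37.1 CPM against 60.9, 68.4 and 51 CPM in untreated cells, a change of -0.72 ± 0.098 (edgeR adjusted p = 1.6e-05). UQCRC1 had 117, 121 and 115 CPM against 165, 204 and 155 CPM in untreated cells, a change of -0.57 ± 0.0951 (edgeR adjusted p = 0.000147). The Rieske iron-sulfur protein UQCRFS1 fell by 0.47 and the core protein UQCRC2 by 0.26 on the log2 scale. UQCRB, which helps to form the quinone pocket, had 25.6, 31.8 and 33 CPM with STA9090+BGT226 against 28.8, 18.9 and 22.6 CPM in untreated cells. These groups overlapped, and the call of 0.37 (edgeR adjusted p = 0.0435) was lost under 4 other settings and without any 1 of 4 libraries, with values of 0.23 to 0.37.

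Complex IV, cytochrome c oxidase, reduces oxygen, and its nuclear subunits surround the mitochondrially encoded catalytic core. COX7B, a small membrane subunit, had 14.9, 19.1 and 16.6 CPM with BGT226 and 14.8, 16.5 and 15 CPM with STA9090+BGT226, against 29.4, 32.6 and 31.5 CPM in untreated cells. The changes were -0.88 ± 0.142 (edgeR adjusted p = 0.000107) and -1.02 ± 0.143 (edgeR adjusted p = 1.35e-05), with no overlap. COX5A, the subunit on the matrix side that binds regulatory ligands, had 58.9, 58.2 and 63.4 CPM with BGT226 against 94.7, 104 and 90.6 CPM in untreated cells, a change of -0.68 ± 0.0813 (edgeR adjusted p = 4.14e-06). COX4I1, the largest nuclear subunit, had 103, 108 and 103 CPM with BGT226 against 113, 130 and 108 CPM in untreated cells and did not pass. With STA9090+BGT226 it had 95.8, 95.5 and 103 CPM and was lower by -0.25 (edgeR adjusted p = 0.00917), a call that was lost without untreated replicate 2 (-0.17, edgeR adjusted p = 0.0719).

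Several complex IV subunits exist as isoform pairs, and these cells used the widely expressed member of each. COX6A1 had 54.8, 64 and 56 CPM with BGT226 against 81.9, 106 and 86.4 CPM in untreated cells, a change of -0.65 ± 0.092 (edgeR adjusted p = 2.62e-05), while its heart and muscle isoform COX6A2 had at most 3 counts in any library. COX7A2 had 28.3, 30 and 27.2 CPM with BGT226 against 41, 57.5 and 45.2 CPM in untreated cells and fell by 0.76, while the muscle isoform COX7A1 had no counts. COX8A had 51.1, 57.6 and 54.3 CPM against 69.1, 102 and 71.7 CPM and fell by 0.57. COX6B1 had 66.1, 66.8 and 67 CPM against 81.1, 110 and 84.4 CPM and fell by 0.47, and NDUFA4 had 29.7, 30.9 and 30.2 CPM against 39.1, 51.9 and 38.1 CPM and fell by 0.51. In each of these 5 genes no BGT226 library reached the untreated range, although the NDUFA4 call was lost without untreated replicate 2 (-0.35, edgeR adjusted p = 0.0827).

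COX6B2, the testis-enriched partner of COX6B1, was present at a low level. It had 0.357, 0.736 and 0.444 CPM with STA9090+PIK75 against 1.14, 1.56 and 2.37 CPM in untreated cells, a change of -1.66 ± 0.517 (edgeR adjusted p = 0.0152). The call was lost without untreated replicate 3, STA9090+PIK75 replicate 1 or STA9090+PIK75 replicate 3, with values of -1.37 to -1.56. COX7C had 53.7, 54.4 and 52.5 CPM with BGT226 against 60.7, 67.1 and 55.2 CPM in untreated cells and did not pass.

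COX7A2L was the only member that was higher with BGT226. It is related to COX7A2, but its protein acts in joining complexes III and IV into supercomplexes. It had 41.3, 41.1 and 41.8 CPM with BGT226, 40.9, 38.9 and 41.1 CPM with STA9090+PIK75 and 41.2, 44.1 and 43.6 CPM with STA9090+BGT226, against 34.7, 36 and 34.6 CPM in untreated cells. All 3 groups lay above the untreated libraries, by small changes of 0.24 ± 0.0672 (edgeR adjusted p = 0.0114), 0.2 ± 0.0676 (edgeR adjusted p = 0.0253) and 0.29 ± 0.067 (edgeR adjusted p = 0.0017) in that order. With no filter on low counts the first was 0.22 and did not pass (edgeR adjusted p = 0.126), and the STA9090+PIK75 call was lost in the same way (0.18, edgeR adjusted p = 0.224) with DESeq2 (0.2, adjusted p = 0.0519) and without any 1 of 4 libraries. With STA9090 alone COX7A2L had 39.1, 43.3 and 38.2 CPM, also above every untreated library, but was not called. Its PIK75 libraries, at 34.9, 36.8 and 32.4 CPM, overlapped the untreated ones.

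Complex V joins a rotating F1 head to a membrane part. With BGT226 all 5 accessory subunits of the membrane part, 3 of 4 of the peripheral stalk, 2 of 3 c-ring genes, 2 of 5 of the F1 head and the inhibitor ATP5IF1 were lower. ATP5MF, a membrane accessory subunit, had 34.6, 35.4 and 39.7 CPM against 63.2, 62.2 and 64.1 CPM in untreated cells, a change of -0.78 ± 0.0967 (edgeR adjusted p = 6.09e-06). It was also lower with PIK75 (-0.39), at 49.8, 52.2 and 42.3 CPM, and with STA9090+PIK75 (-0.61), at 46.7, 35.2 and 42.3 CPM. ATP5MF shares its strand and position with PTCD1 and with a read-through of both, so its reads may be split. ATP5ME, another accessory subunit, had 19.3, 22.4 and 20.8 CPM with BGT226 and 41.2, 41.2 and 39.4 CPM with STA9090+PIK75, against 34.1, 31.9 and 31.5 CPM in untreated cells. It fell by 0.64 with BGT226 and rose by 0.32 with the pair on the log2 scale, and neither group overlapped the untreated libraries.

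ATP5PD, the stalk subunit d, had 34.5, 34.1 and 36.4 CPM with BGT226 and 69.2, 62.2 and 67.3 CPM with STA9090+PIK75, against 51.2, 61.5 and 45 CPM in untreated cells. The changes were -0.59 ± 0.0929 (edgeR adjusted p = 8.69e-05) and 0.33 ± 0.0901 (edgeR adjusted p = 0.0069), and the rise was lost without untreated replicate 3 (0.22, edgeR adjusted p = 0.0606). In the F1 head, ATP5F1B had 520, 522 and 518 CPM with BGT226 against 606, 783 and 642 CPM in untreated cells, a change of -0.38 ± 0.101 (edgeR adjusted p = 0.00744). ATP5F1C, the central gamma subunit, fell by 0.56, while ATP5F1A, the alpha subunit, at -0.22 did not pass. ATP5IF1, which blocks the reverse reaction, had 21.2, 18.2 and 20.8 CPM with BGT226 against 36, 31.3 and 27.7 CPM in untreated cells, a change of -0.66 ± 0.113 (edgeR adjusted p = 0.000189).

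The c-ring offers a contrast within a single subunit, because 3 genes encode proteins that are processed to the same mature c subunit. ATP5MC1 had 18.7, 18.6 and 16.9 CPM with BGT226 against 26.9, 36.3 and 24.8 CPM in untreated cells, a change of -0.71 ± 0.122 (edgeR adjusted p = 0.000192). ATP5MC3 had 47.5, 53.7 and 49.8 CPM against 73.7, 98.2 and 76.5 CPM, a change of -0.72 ± 0.0972 (edgeR adjusted p = 1.57e-05). ATP5MC2 had 141, 138 and 132 CPM against 129, 150 and 107 CPM, a change of 0.09 ± 0.102 (edgeR adjusted p = 0.563). The first 2 lay below the untreated range and ATP5MC2 lay within it. Per kilobase of exon in untreated cells, ATP5MC2 had 57.3, ATP5MC1 42.9 and ATP5MC3 14.6 CPM per kb. These lengths merge the exons of all annotated coding transcripts, 5673 bases for ATP5MC3 and 683 for ATP5MC1. Before division by length, ATP5MC3 had 82.8 and ATP5MC1 29.3 CPM on average, so their order depends on that length. Differences in response between these genes were not tested.

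**Figure D3:**
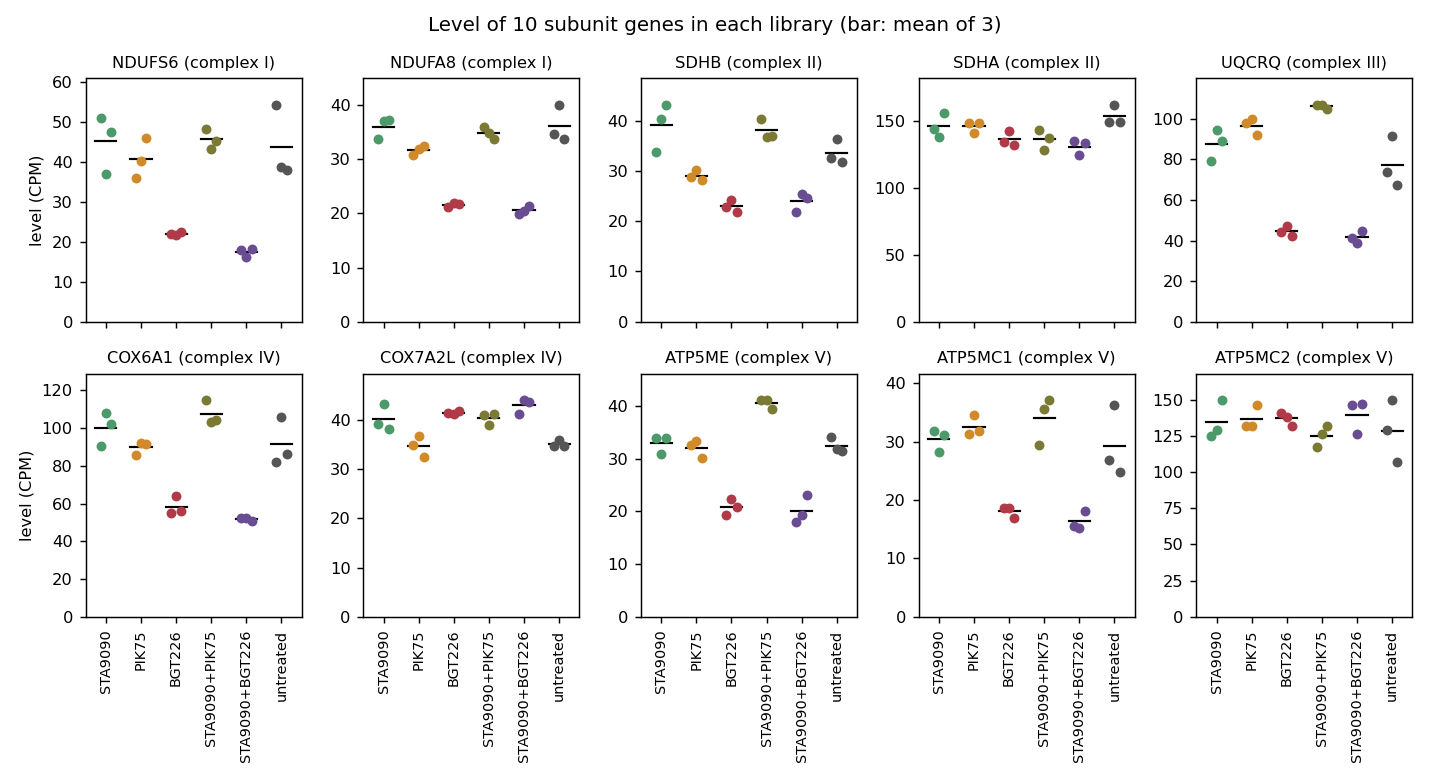
TMM-scaled CPM of 10 members in each of the 18 libraries, with 1 point per library and a bar at the mean of 3; each vertical axis starts at 0. NDUFS6, NDUFA8, SDHB, SDHA, UQCRQ, COX6A1, ATP5ME and ATP5MC1 lie below the untreated range in both BGT226 groups. COX7A2L lies above it and ATP5MC2 overlaps it.

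STA9090 alone changed no member by the adjusted test: 0 of 80 were higher and 0 lower, against 1.16% and 1.68% of all tested genes (edgeR). The median was 0.12, 65 members had a positive value, and 14 had an unadjusted p under 0.05; DESeq2 also called none, while 4 were higher with no filter on low counts. The largest value was that of COX7B, with 41.3, 46.2 and 35.4 CPM with STA9090 against 29.4, 32.6 and 31.5 CPM in untreated cells (0.39, edgeR adjusted p = 0.109). Scaling by library total shifts every gene with STA9090 by -0.09.

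With PIK75, 3 members were higher and 6 lower, against a background of 8.49% and 10.2%, and the median was -0.08. The higher ones were NDUFB7, UQCRQ and NDUFA2 and the lower ones NDUFB8, NDUFC1, NDUFA3, NDUFB4, ATP5MF and NDUFB9. All but ATP5MF of the lower ones belong to complex I. The count of higher members was 0 without untreated replicate 1 or 3 or PIK75 replicate 2, 1 without PIK75 replicate 1 and 7 without untreated replicate 2, so no direction is drawn from it. The count of lower members was 10 without untreated replicate 3, and 4 without untreated replicate 2 or PIK75 replicate 1. NDUFB9 had 68.6, 64.2 and 74.2 CPM with PIK75, overlapped the untreated values, and lost its call under 5 other settings and without untreated replicate 1 or 2 or PIK75 replicate 1 or 2 (-0.19 to -0.25).

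With STA9090+PIK75, 12 members were higher and 8 lower, against 18.3% and 20.1% of all tested genes, with a median of 0.03. The rises were led by NDUFB7, UQCRQ (0.46), UQCR11 (0.46) and NDUFS5 (0.42), and the falls by COX6B2, NDUFA3 (-0.92), NDUFA11 and NDUFB8. Both shares lie below the background, and the count of higher members was 5 without untreated replicate 3 and 18 without untreated replicate 2. UQCR11, a small subunit of complex III, had 35.8, 32.7 and 31.4 CPM with the pair against 20.4, 30.2 and 21.4 CPM in untreated cells. COL1A1, the only fibroblast marker tested, moved with this pair: the list summed to 0.714 to 1.33 CPM, against 8.71 to 11.9 CPM in untreated cells, and the adrenocortical list to 1590 to 1650 CPM, against 3820 to 4300 CPM. Their part in these results was not tested.

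Adding STA9090 to PIK75 gave 11 members higher and 4 lower than PIK75 alone, against 11.3% and 14% of all tested genes. The share higher, 13.8% of members, lies near the background. The lower ones were COX6B2 (-2.1), NDUFA11 (-0.74), NDUFA3 (-0.52) and COX8A (-0.47). SDHB had 40.4, 36.8 and 36.9 CPM with the pair against 28.8, 30.1 and 28.2 CPM with PIK75 (0.39 ± 0.0895, edgeR adjusted p = 0.00314), and NDUFB9 had 101, 91.5 and 85.5 CPM against 68.6, 64.2 and 74.2 CPM (0.42 ± 0.0854, edgeR adjusted p = 0.00103). Neither gene overlapped between the groups. The members higher than with PIK75 numbered 5 without STA9090+PIK75 replicate 1. All 10 adrenocortical markers tested were lower with the pair than with PIK75 (median -0.6), COL1A1 was lower by -2.87, and 1 of 2 leukocyte markers was higher; their part in the result was not tested. Adding STA9090 to BGT226 gave 0 members higher and 0 lower than BGT226 alone, against 0.988% and 1.7% of all tested genes (edgeR), with a median of -0.02. At an unadjusted p under 0.05 there were 6 members, and DESeq2 called 1 lower. The interaction of STA9090 with BGT226 was called for 0 members by edgeR and by DESeq2, with 9 at an unadjusted p under 0.05, and for 0.00633% of all tested genes in the positive and 0% in the negative direction.

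The direct comparison of the 2 PI3K inhibitors does not set either against the untreated libraries. Those libraries still share the fit, with its filter, scaling and estimate of spread. With BGT226, 43 members were lower and 1 higher than with PIK75, where 16.5% of all tested genes were lower and 15.5% higher. The lower ones were 20 of complex I, 1 of complex II, 5 of complex III, 7 of complex IV and 10 of complex V, and the higher one was COX7A2L (0.25 ± 0.0675, edgeR adjusted p = 0.00686). NDUFS6, at 22, 21.7 and 22.4 CPM with BGT226 against 35.9, 40.1 and 45.9 CPM with PIK75, differed by -0.88 ± 0.132 (edgeR adjusted p = 3.56e-05). COX6A1, at 54.8, 64 and 56 CPM with BGT226 against 85.5, 92.1 and 91.6 CPM with PIK75, differed by -0.62 ± 0.0921 (edgeR adjusted p = 2.99e-05). ATP5MC1, at 18.7, 18.6 and 16.9 CPM against 31.3, 34.6 and 31.8 CPM, differed by -0.86 ± 0.122 (edgeR adjusted p = 1.86e-05). Leaving out any 1 library of these groups gave 36 to 47 lower members. Of the adrenocortical markers tested, 7 of 10 were higher with BGT226 than with PIK75 (median 0.28), COL1A1 was higher by 0.54, and 1 of 2 leukocyte markers was lower; their part in the result was not tested.

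With STA9090 in both arms, 53 members were lower and 2 higher with STA9090+BGT226 than with STA9090+PIK75, where 20.9% of all tested genes were lower and 22.4% higher. UQCRQ, at 41.4, 38.6 and 44.7 CPM with STA9090+BGT226 against 107, 107 and 105 CPM with STA9090+PIK75, differed by -1.35 ± 0.0957 (edgeR adjusted p = 9.88e-10). NDUFS6 differed by -1.38 and COX6A1 by -1.05. The higher members were NDUFA5 (0.54) and NDUFA3 (0.26), both accessory subunits of complex I, and their number was 0 without STA9090+PIK75 replicate 2 or 3 or STA9090+BGT226 replicate 2 or 3, 1 without STA9090+PIK75 replicate 1 and 3 without STA9090+BGT226 replicate 1. All 10 adrenocortical markers tested were higher with STA9090+BGT226 than with STA9090+PIK75 (median 1.22), COL1A1 was higher by 3.3, and 1 of 2 leukocyte markers was lower; their part in the result was not tested.

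Of the 13 mitochondrially encoded subunits, 0 passed with BGT226 in either direction by edgeR, with a median of 0.16 and 1 at an unadjusted p under 0.05. MT-CO1, a catalytic subunit of complex IV, was higher with STA9090+BGT226 (0.45, edgeR adjusted p = 0.0434) and MT-ND2, a membrane subunit of complex I, with STA9090+PIK75 (0.65, edgeR adjusted p = 0.0485). No mitochondrially encoded gene passed with STA9090 or PIK75. Their summed level varied widely, at 82500 to 96700 CPM with BGT226 against 49400 to 108000 CPM in untreated cells, The difference in response between the 2 gene sets was not tested.

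Of 7 subunits and carriers whose names fall outside the symbol patterns, 5 were lower with BGT226, among them CYC1, the cytochrome c1 of complex III (-0.71, edgeR adjusted p = 7.35e-05), NDUFAB1, the acyl carrier protein of complex I (-0.69, edgeR adjusted p = 1.28e-05), ETFA of the electron transfer flavoprotein (-0.47, edgeR adjusted p = 1.18e-05) and cytochrome c itself, CYCS (-0.42, edgeR adjusted p = 0.000387). With STA9090+BGT226 5 of 7 were lower and with PIK75 2 were lower and 1 higher. The citric acid cycle list also counts the pyruvate dehydrogenase genes PDHA1, PDHB and DLAT. It had 12 of 16 lower with BGT226, 14 with STA9090+BGT226, 4 with PIK75 and 5 with STA9090+PIK75. None was higher in these 4 comparisons. These are 75%, 87.5%, 25% and 31.2%, where 15.7%, 20.4%, 10.2% and 20.1% of all tested genes were lower in the same order. The list of 7 is too short to set against these shares, and no share was tested. IDH3A, of the NAD-dependent isocitrate dehydrogenase, averaged 30.7 ± 1.36 CPM with BGT226 against 51 ± 2.29 CPM in untreated cells (SD, n = 3 each; log2 fold change -0.73, edgeR adjusted p = 4.58e-07), followed by SUCLG1 (-0.61) and FH (-0.59).

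Assembly factors help to build the complexes without staying in them. With BGT226, 2 of 14 complex I factors were lower (NDUFAF4 at -0.51 and TMEM70 at -0.37). TMEM70 is counted here with complex I and not with the ATP synthase factors, and the complex I share depends on that choice. For complex IV, 8 of 25 factors were lower and 1 higher, among the lower TACO1 (-0.55), COX14 (-0.58) and COA4 (-0.57). For complex III, 2 of 6 factors were lower (UQCC2 at -0.49 and BCS1L at -0.69) and 1 higher (TTC19 at 0.28). Of 4 complex II factors SDHAF1 was higher (0.38), and of 4 ATP synthase factors ATPAF2 was lower (-0.31) and DMAC2L higher (0.36). With STA9090+PIK75 the complex I factors had 3 higher and 1 lower, among them NDUFAF7 (0.88), FOXRED1 (0.67) and ECSIT (0.66), and complex IV factors had 7 higher and 3 lower. Of all tested genes, 15.7% were lower and 12.8% higher with BGT226, and 20.1% and 18.3% with STA9090+PIK75, so the complex I factors lie near the background in both (14.3% lower with BGT226, 21.4% higher with the pair), and the lists of 4 to 6 genes are too short to set against it. The shares were not tested against those of the subunits.

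Of 16 regulators of mitochondrial biogenesis, 1 was higher with BGT226, the mitochondrial helicase TWNK (0.34, edgeR adjusted p = 0.0102), and 0 were lower. Their log2 fold changes ran from -0.31 to 0.47, with a median of 0.02. At an unadjusted edgeR p under 0.05 there were 7. NRF1, GABPA, YY1, TFAM and PPARGC1A transcripts did not pass with BGT226. With STA9090+BGT226, 4 were lower and 2 higher, among the lower PPARGC1B (-0.55), GABPB1 (-0.42) and the mitochondrial polymerase POLG (-0.34). With STA9090+PIK75, 6 were lower and 1 higher, among the lower POLG (-0.85, edgeR adjusted p = 6.98e-07), the coactivators PPARGC1A (-0.78) and PPARGC1B (-0.49), and GABPA (-0.48). With the single drugs POLG was lower with STA9090 (-0.36) and YY1 with PIK75 (-0.26). The background of lower and higher genes was 15.7% and 12.8% with BGT226, 20.4% and 19.4% with STA9090+BGT226, and 20.1% and 18.3% with STA9090+PIK75, and the regulators lower with STA9090+BGT226, 25% of the list, lie near it.

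**Figure D4:**
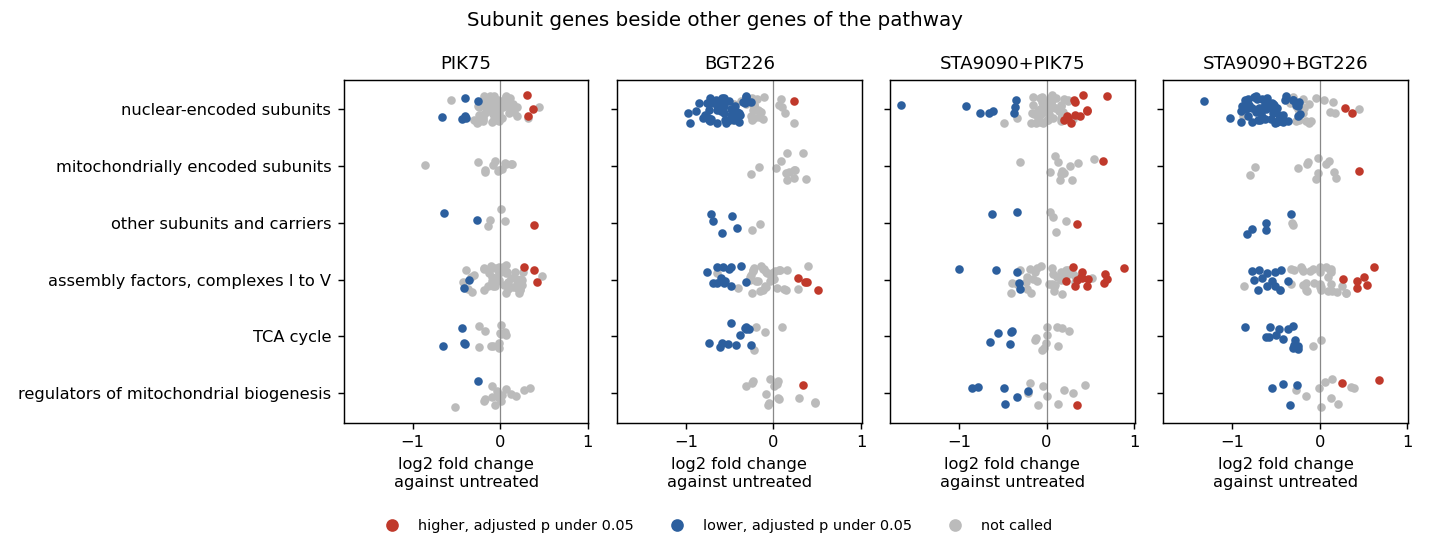
Log2 fold change against untreated cells of the tested members and of 5 other groups of genes of the pathway, with 1 panel per treatment on a shared horizontal axis; red and blue points passed the adjusted threshold. With BGT226 the nuclear-encoded subunits (52 of 80 lower) and the other subunits and carriers (5 of 7) lie mostly left of 0. So does the TCA cycle list, which includes pyruvate dehydrogenase genes (12 of 16). None of the 13 mitochondrially encoded subunits passed. Of all tested genes, 15.7% were lower with BGT226.

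Most subunit genes are short, and merged exonic length moved with the response to BGT226. Of members with exons under 1 kb in all, 21 of 24 (87.5%) were lower, against 34.7% of other protein-coding genes of that length. From 1 to 2 kb the shares were 68.2% of 22 members against 26.1% of other genes, from 2 to 4 kb 63.6% of 22 against 20.2%, and over 4 kb 16.7% of 12 against 14.3%. Across the 80 members, log2 fold change and exonic length had a Spearman correlation of 0.35, against 0.16 across 12812 other protein-coding genes; these are descriptions over genes that share libraries. Within each bin up to 4 kb the share was higher among members than among other genes. With STA9090+BGT226 the same shares were 83.3%, 81.8%, 54.5% and 41.7% of members, against 42.4%, 34.2%, 27% and 17.8% of other genes. Whether length has a part in the result was not tested.

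**Figure D5:**
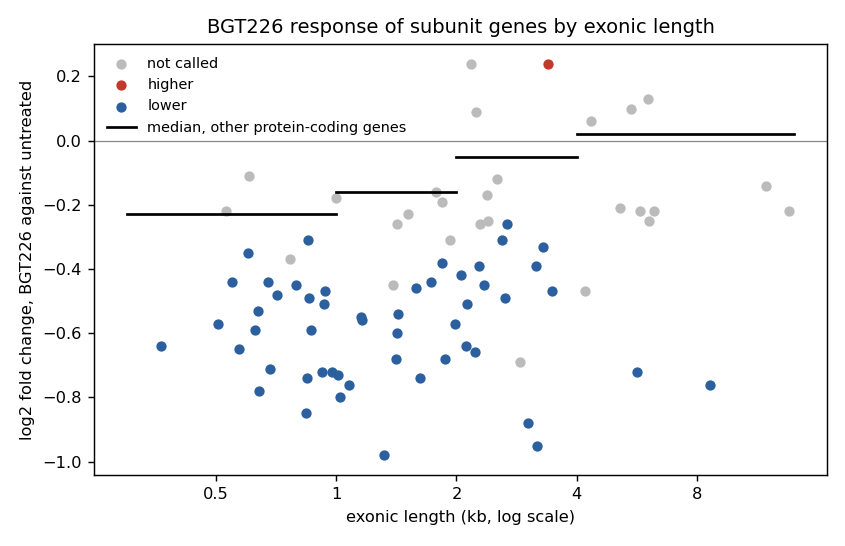
Log2 fold change with BGT226 against untreated cells of the 80 tested members, by summed exonic length on a log scale; black lines are medians of other protein-coding genes in the bins under 1, 1 to 2, 2 to 4 and over 4 kb. The members' medians, -0.52, -0.55, -0.39 and -0.22, lie below those of the other genes, -0.23, -0.16, -0.05 and 0.02, in every bin.

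RefSeq promoter windows were matched for 69 of 86 members, 66 of them tested. All motifs were read on both strands. The short NRF1 core GCATGCGC was found in 13 of 66 tested members (19.7%), against 5.56% of promoters of all tested genes and 3.27% of all 27305 promoters. The longer, palindromic NRF1 core, which contains the short one on both strands, was in 6.06% of members, against 2.29% and 1.36%. The YY1 core AAGATGGC was in 16.7%, against 5.37% and 3.03%, and the ETS or GABP core CCGGAAGT in 15.2%, against 8.69% and 4.44%. The SP1 core GGGCGG (63.6%, against 69.9% and 44.6%) and the CCAAT box (34.8%, against 37% and 35.7%) stood near the background of tested genes. The estrogen-related receptor core TNAAGGTCA was in 3.03%, against 0.573% and 0.963%.

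Among members with a matched promoter, 43 were lower with BGT226 and 23 were not. The short NRF1 core was in 23.3% of the lower members and 13% of the others, and the YY1 core in 23.3% and 4.35%. The ETS or GABP core was in 14% and 17.4%, and the SP1 core in 62.8% and 65.2%. Median GC content was 59% in the lower members and 63% in the others. These are counts of letters in 300 bases over few genes, given with no test, and a window without a match says nothing about the factor.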

How the data were processed

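Total RNA of 18 libraries was sequenced after removal of ribosomal RNA with a stranded kit. The authors deposited RSEM expected counts per gene. Per the submitters' processing notes, the tools were STAR 2.7.0f and RSEM 1.3.1, with bcl2fastq 2.20 and cutadapt 1.18, and the build was hg38. The strand setting and the annotation release are not stated. Expected counts were rounded and genes filtered with filterByExpr (minimum count 10, total 15), leaving 15787 of 58870. One edgeR 4.0.16 quasi-likelihood model (R 4.3.3, limma 3.58.1) with TMM scaling and a mean per group was fitted to all libraries, with 12 residual degrees of freedom. Benjamini-Hochberg adjustment ran over all tested genes in each of 11 comparisons and a test for any difference among the 6 groups, with a threshold of 0.05. SE is the absolute log2 fold change divided by the root of F. Libraries held 10237016 to 21133760 counts, and the biological coefficient of variation was 10.6%. The labels call the replicates biological without naming separate cultures, so p-values measure the spread between these samples.

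Lengths and overlaps came from GENCODE 29, and promoters from RefSeq on GRCh38.p14. The members and lists were chosen with earlier results of these data known. Members given in every library were the 3 with the smallest p over the 6 groups in each complex, the called members with the largest rise and fall in each comparison with untreated cells, and the tested isoform families; from other lists, up to 3 called genes with the smallest adjusted p. Other members and list genes were named for their role after their values were seen. Alternatives were RLE factors, no filter or a stricter one (CPM of 1 in 3 libraries), a replicate block, leaving out the 50 most counted genes, DESeq2 1.42.0, the compared groups alone, each library left out, and other CPM scalings.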

Additional observations from a re-analysis of the deposited data

Results flagged for a closer look

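NDUFA3, an accessory subunit of complex I, was picked out because its response to PIK75 differed with and without STA9090, by a test of the difference itself. The interaction was -0.53 on the log2 scale (edgeR adjusted p = 0.0154). NDUFA3 was lower by -0.52 with STA9090+PIK75 than with PIK75, and STA9090 against untreated cells gave 0.01. In a fit of the 4 groups concerned, 0 members had a negative interaction.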

How the results depend on the processing

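With no filter on low counts, which tests 31658 genes, the members called were 4 higher with STA9090, 0 higher with BGT226 against untreated cells and against PIK75, 3 lower with STA9090+BGT226 against BGT226, and 4 and 2 with a negative interaction of STA9090 with PIK75 and with BGT226. With DESeq2, 1 was lower with STA9090+BGT226 against BGT226 and 1 higher against STA9090+PIK75. With the compared groups alone, 0 were higher with PIK75, 3 lower with STA9090+BGT226 against BGT226, 0 had a negative interaction with PIK75 and 2 were higher with BGT226 against PIK75. With RLE factors, without the 50 most counted genes, with DESeq2 and with the compared groups alone, 1 was higher with STA9090+BGT226. The cause was not tested.

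Scaled by library total, summed levels relative to untreated cells were 0.99 with STA9090 (1.05 by TMM, so its direction turns) and 0.728 with BGT226 for complex I, and 0.963 with STA9090 for complex II. For complex III they were 1.01 with STA9090 and 0.999 with PIK75 and with STA9090+PIK75, and for complex IV 1.04 with STA9090 and 1.03 with STA9090+PIK75. For complex V they were 1.01 with STA9090, 0.765 with BGT226 and 0.92 with STA9090+PIK75, and for all members 1.01 with STA9090, 0.918 with PIK75, 0.745 with BGT226 and 0.959 with STA9090+PIK75. Without the 50 most counted genes, complex III with STA9090+PIK75 was at 1.02.

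Leaving out 1 library at a time gave 0 to 1 members higher with STA9090, 0 to 7 higher and 4 to 10 lower with PIK75, 1 higher and 42 to 57 lower with BGT226, 5 to 18 higher and 6 to 8 lower with STA9090+PIK75, and 1 to 2 higher and 47 to 59 lower with STA9090+BGT226. It gave 5 to 13 higher and 3 to 5 lower for STA9090+PIK75 against PIK75, 1 higher and 36 to 47 lower for BGT226 against PIK75, and 0 to 3 higher and 44 to 52 lower for STA9090+BGT226 against STA9090+PIK75. The interaction with PIK75 had 0 to 1 positive and 1 to 2 negative, and 69 to 74 members differed among the 6 groups. The number of all tested genes lower with BGT226 changed as well, at 1850 to 2242 against 2485 with all libraries.

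Same-numbered replicates did not deviate together (median correlation -0.028, range -0.172 to 0.15 over 45 pairs), so the numbers were not taken as pairs. With the replicate block, 51 members were lower with BGT226 and 55 with STA9090+BGT226, 13 were higher with STA9090+PIK75, 13 higher for STA9090+PIK75 against PIK75 and 44 lower for BGT226 against PIK75. The 59 log2 fold changes of single members that were followed were all called in the main fit, so a reversal was unlikely from the start. None reversed, but 18 of 413 values under other settings and 34 of 354 with a library left out lost their call. With 3 libraries a group, small changes may be missed.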
